A study of Mus musculus with 6 samples.

Results

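Activated conventional dendritic cells, which take up antigen in tissue and carry it to lymph nodes, give the working name to 10 genes examined here in sorted CD4+ T cells: the chemokine genes Ccl22 and Ccl17, the actin-bundling gene Fscn1, the costimulatory genes Cd80, Cd86, Cd40 and Cd83, Apol7c, and the C-type lectin genes Cd209a and Cd209d. All probe sets whose platform symbol was one of these names were taken, which gave 11 probe sets for 10 genes out of 23410 probe sets with a gene symbol and 35556 in all. The genes were chosen in part by these same log2 levels, since the list includes genes already seen to be low in the Cxcr5+ arrays, so every member value in a comparison with Cxcr5-Bcl6- cells is given as a description without a test.

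The 6 arrays held RNA from CD44+ CD4+ T cells, the antigen-experienced fraction, of 3 kinds: Cxcr5+Bcl6+ (both the follicle-homing receptor and a red fluorescent reporter of Bcl6), Cxcr5+Bcl6- (the receptor without the reporter) and Cxcr5-Bcl6- (neither), with 2 arrays each. All came from draining lymph nodes of male Bcl6_RFP mice aged 8 to 10 weeks, immunised with KLH in CFA. The study's title concerns Bcl6 and the program of follicular helper T cells. No unimmunised mice and no sorted dendritic cells are among the groups, and the sources used here do not say whether animals were pooled. The arrays of a group are described as biological replicates. With 2 per group their number limits the precision.

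When a dendritic cell is activated it moves to the T cell zone, raises the B7 molecules CD80 and CD86 that engage CD28 on T cells, and secretes CCL17 and CCL22, which attract cells carrying CCR4. CD40 on the dendritic cell receives the CD40 ligand signal from helper T cells. Activated T cells are also known to carry some of these molecules, among them CD80, CD86 and CD83.

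Of the 10 genes, 9 had their highest levels in Cxcr5-Bcl6- cells, and Cd83 differed little between groups. Ccl22 stood furthest apart, 15.7-fold lower in Cxcr5+Bcl6+ and 8.03-fold lower in Cxcr5+Bcl6- cells than in Cxcr5-Bcl6- cells. The 2 Cxcr5+ groups differed from each other for 7 of the 10 genes, always with the lower level in Cxcr5+Bcl6+ cells, where 13% of all probe sets passed as lower and 26.4% in either direction. This count is not independent of the choice of genes, since the list was drawn up with results of all groups known. The 7 became 4 when all rows were tested or either Cxcr5+Bcl6- replicate was left out, and 5 without either Cxcr5+Bcl6+ replicate. The difference was largest for Ccl17 and undetected for Fscn1, Cd83 and Apol7c.

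Replicate arrays correlated at r between 0.994 and 0.996 in all groups. As a guide to the lowest levels, 1223 probe sets of sensory receptor genes (smell, pheromone and trace amine) had medians of 5.92 and 6.02 in Cxcr5+Bcl6+, 5.66 and 5.63 in Cxcr5+Bcl6- and 5.69 and 5.76 in Cxcr5-Bcl6- arrays (log2 level). Their 95th percentiles were 7.72 and 7.73, 7.30 and 7.31, and 7.30 and 7.46 in the same order. Their median difference in Cxcr5+Bcl6+ cells was 0.30 against Cxcr5+Bcl6- and 0.22 against Cxcr5-Bcl6- cells (log2), opposite in sign to the lower member levels in Cxcr5+Bcl6+ cells. Probes differ in brightness, so this guide is rough. At or under the 95th percentile on both arrays were 6 members in Cxcr5+Bcl6+ cells (Ccl22, Ccl17, Cd86, Apol7c, Cd209a and Cd209d), 1 in Cxcr5+Bcl6- cells (Cd209d) and 0 in Cxcr5-Bcl6- cells. Differences that end at such levels may understate the change in RNA.

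**Figure D1:**
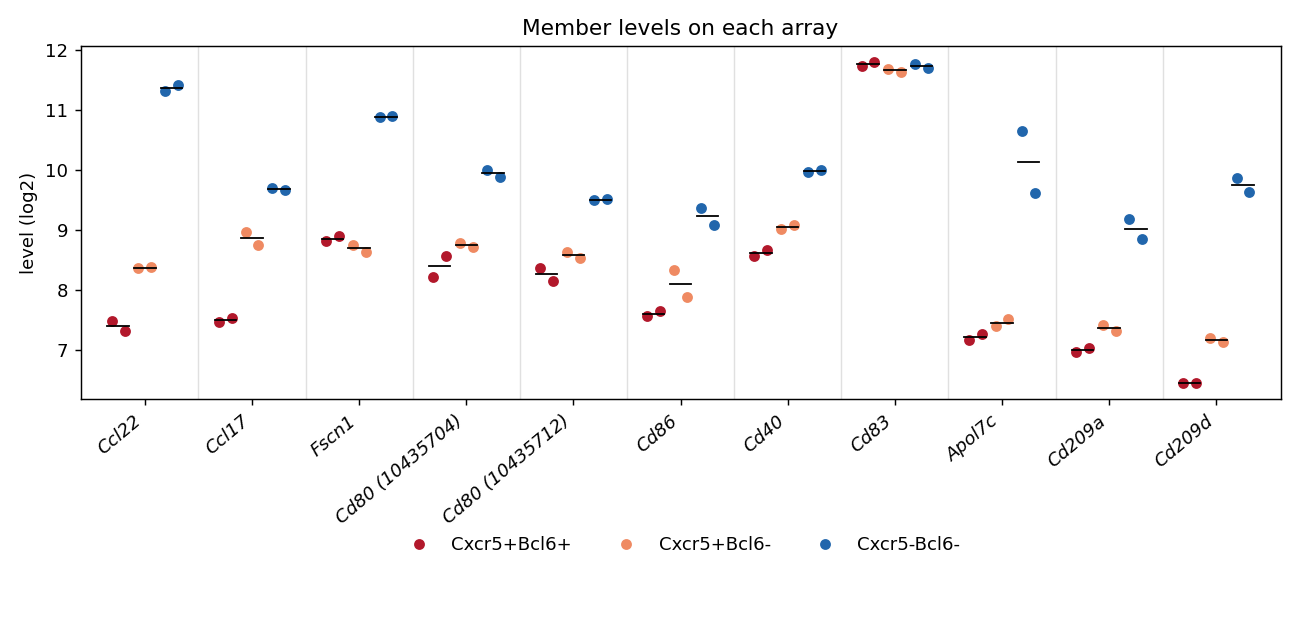
Log2 level (vertical axis) of the 11 member probe sets on each of the 6 arrays, with points for arrays, short lines for group means and colours for the sorted groups. Cxcr5-Bcl6- points lie above the other groups for every gene but Cd83, where all 6 arrays lie between 11.64 and 11.80.

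Ccl22 and Ccl17 encode the chemokines that bind CCR4, and RefSeq (GRCm38.p6) places both on chromosome 8 with Cx3cl1 between them. Their promoters, 250 bases before to 50 after the annotated start, are shown with that of Apol7c because these 3 genes hold the contrasts described below: the pair with unlike patterns, and the gene with the widest replicate spread. Ccl22 lies at chr8:94745434-94745733 and Ccl17 at chr8:94810203-94810502, both on the plus strand, and Apol7c at chr15:77533266-77533565 on the minus strand, each written 5′ to 3′. Capitals mark TTC and GAA with any 4 bases between them, letters that the interleukin 4 factor STAT6 is known to bind.
Ccl22: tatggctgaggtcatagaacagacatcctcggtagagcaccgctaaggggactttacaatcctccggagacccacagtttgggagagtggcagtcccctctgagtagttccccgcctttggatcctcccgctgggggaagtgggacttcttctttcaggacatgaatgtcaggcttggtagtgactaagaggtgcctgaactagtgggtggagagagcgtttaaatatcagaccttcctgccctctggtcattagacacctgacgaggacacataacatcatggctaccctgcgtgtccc
Ccl17: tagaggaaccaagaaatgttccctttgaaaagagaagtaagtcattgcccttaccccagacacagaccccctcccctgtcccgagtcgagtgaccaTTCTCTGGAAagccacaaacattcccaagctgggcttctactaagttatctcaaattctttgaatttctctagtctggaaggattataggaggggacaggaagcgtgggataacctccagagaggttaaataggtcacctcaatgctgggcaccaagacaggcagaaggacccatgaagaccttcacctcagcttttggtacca
Apol7c: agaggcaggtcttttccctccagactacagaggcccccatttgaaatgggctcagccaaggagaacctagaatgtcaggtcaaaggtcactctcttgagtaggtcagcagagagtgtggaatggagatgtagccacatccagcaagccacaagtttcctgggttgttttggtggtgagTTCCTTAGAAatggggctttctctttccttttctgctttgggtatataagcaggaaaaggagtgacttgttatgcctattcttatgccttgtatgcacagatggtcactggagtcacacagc
RefSeq promoters were held for 7 of the 10 members. This pattern, which reads the same on both strands, occurred once in Ccl17, beginning at base -154 from the start, and once in Apol7c, beginning at base -72, and in none of Ccl22, Fscn1, Cd80, Cd209a and Cd209d. It occurred in 6.95% of 32851 promoters of this length. An NF-kB pattern (GGG and TTTCC with any 2 bases between them) and a PU.1 pattern (GAGGAAGT), searched on both strands, had no match in these 7 windows and were present in 1.63% and 3.20% of all windows. A match is a description of letters only.

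Ccl22 (probe set 10574213) had levels of 7.48 and 7.31 in Cxcr5+Bcl6+, 8.37 and 8.37 in Cxcr5+Bcl6- and 11.33 and 11.42 in Cxcr5-Bcl6- cells (log2). The 3 groups did not overlap, and the spread within a group was small beside the gaps between groups. The log2 difference was -3.98 for Cxcr5+Bcl6+ and -3.00 for Cxcr5+Bcl6- cells, each against Cxcr5-Bcl6- cells. Between the Cxcr5+ groups Ccl22 was lower in Cxcr5+Bcl6+ cells by a log2 difference of -0.97 (SE 0.0942, adjusted p = 1.95e-05, 1.96-fold). The rule for the members does not name this contrast, but it uses the same arrays and the list was drawn up with results of all groups known, so its p-values for members are not independent of the choice.

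Ccl17 (probe set 10574226) had levels of 7.45 and 7.53 in Cxcr5+Bcl6+, 8.96 and 8.75 in Cxcr5+Bcl6- and 9.70 and 9.67 in Cxcr5-Bcl6- cells. Its Cxcr5+Bcl6- arrays lay nearer to Cxcr5-Bcl6- than to Cxcr5+Bcl6+ arrays, whereas those of Ccl22 lay nearer to Cxcr5+Bcl6+. The log2 difference between Cxcr5+Bcl6+ and Cxcr5+Bcl6- cells was -1.37 (SE 0.0969, adjusted p = 1.56e-06, 2.58-fold), the largest of any member in that contrast.

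Cx3cl1, the gene between them, which encodes the ligand of CX3CR1, had levels of 7.86 and 7.79 in Cxcr5+Bcl6+, 7.81 and 7.84 in Cxcr5+Bcl6- and 7.82 and 7.90 in Cxcr5-Bcl6- cells. No difference was detected (adjusted p = 0.828, 0.9 and 0.969 for Cxcr5+Bcl6+ against Cxcr5-Bcl6-, Cxcr5+Bcl6- against Cxcr5-Bcl6- and Cxcr5+Bcl6+ against Cxcr5+Bcl6-). Ccr4, the receptor for both chemokines, had 11.27 and 11.34 in Cxcr5+Bcl6+, 12.57 and 12.37 in Cxcr5+Bcl6- and 12.46 and 12.52 in Cxcr5-Bcl6- cells. Only the Cxcr5+Bcl6+ arrays were low for Ccr4, by -1.18 against Cxcr5-Bcl6- and -1.16 against Cxcr5+Bcl6- cells (log2, adjusted p = 2.43e-06 and 5.3e-06).

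**Figure D2:**
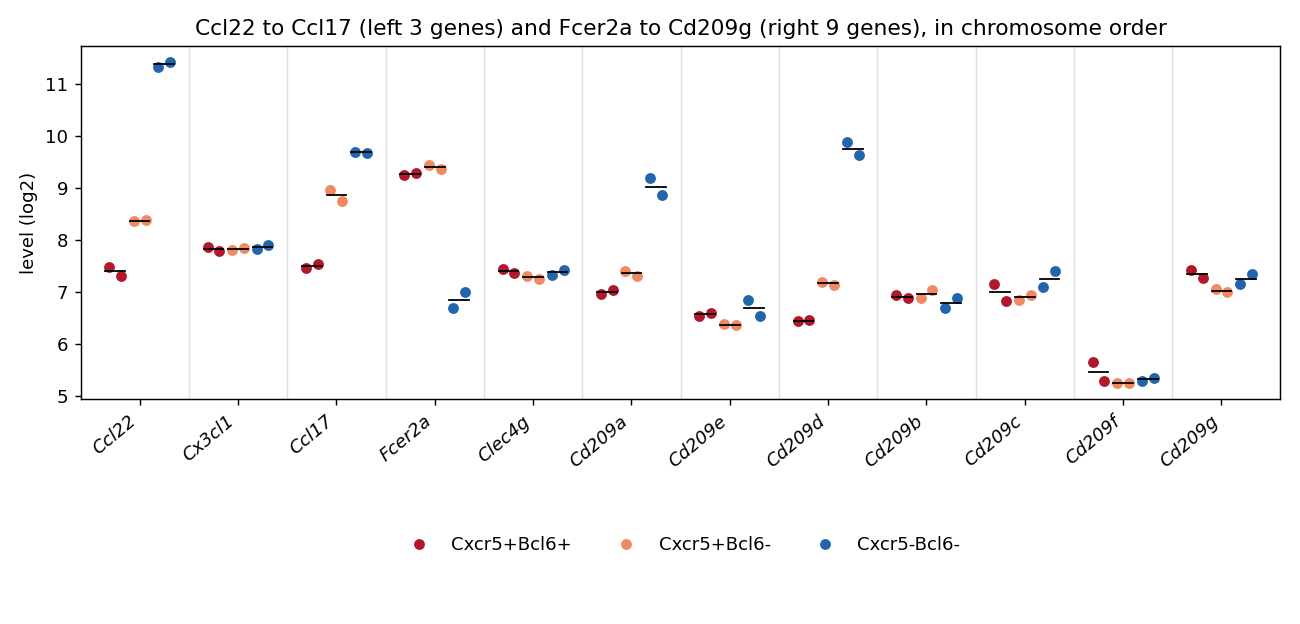
Log2 level on each array for the genes of 2 chromosome 8 stretches in RefSeq order, Ccl22 to Ccl17 at the left and Fcer2a to Cd209g at the right, with points for arrays, lines for group means and colours for groups. Ccl22, Ccl17, Cd209a and Cd209d are highest in Cxcr5-Bcl6- cells and Fcer2a is lowest there, while Cx3cl1 between the chemokine genes stays between 7.79 and 7.90.

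Fscn1 (probe set 10527158) encodes fascin, which bundles actin in the long processes of mature dendritic cells. Its levels were 8.82 and 8.89 in Cxcr5+Bcl6+, 8.75 and 8.64 in Cxcr5+Bcl6- and 10.88 and 10.90 in Cxcr5-Bcl6- cells. Both Cxcr5+ groups were low, at log2 differences of -2.04 and -2.20 against Cxcr5-Bcl6- cells. The difference between Cxcr5+Bcl6+ and Cxcr5+Bcl6- cells was 0.16 (95% interval -0.034 to 0.358, adjusted p = 0.213), opposite in sign to that of the chemokines and not past the threshold.

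The B7 genes stepped down over the groups. The Cd80 probe set 10435704 had 8.21 and 8.56 in Cxcr5+Bcl6+, 8.78 and 8.71 in Cxcr5+Bcl6- and 10.00 and 9.89 in Cxcr5-Bcl6- cells. The other Cd80 probe set, 10435712, had 8.36 and 8.15 in Cxcr5+Bcl6+, 8.63 and 8.53 in Cxcr5+Bcl6- and 9.49 and 9.51 in Cxcr5-Bcl6- cells, so both gave the same order of groups. Cd86 (probe set 10439312) had 7.56 and 7.64 in Cxcr5+Bcl6+, 8.32 and 7.87 in Cxcr5+Bcl6- and 9.37 and 9.08 in Cxcr5-Bcl6- cells, with a wider spread in both Bcl6- groups. Against Cxcr5-Bcl6- cells the 3 probe sets were 2.94-fold, 2.37-fold and 3.08-fold lower in Cxcr5+Bcl6+ cells, and 2.30-fold, 1.89-fold and 2.19-fold lower in Cxcr5+Bcl6- cells.

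Within the Cxcr5+ cells the B7 differences were smaller and less secure. They were -0.36 and -0.33 for the Cd80 probe sets and -0.50 for Cd86 (log2, adjusted p = 0.0421, 0.0296 and 0.0238). The call for Cd80 probe set 10435704 ended without Cxcr5+Bcl6+ replicate 1 (difference -0.18, adjusted p = 0.281) and when Cxcr5+Bcl6- replicate 1 (0.19) or 2 (0.0891) was left out. That for probe set 10435712 ended without Cxcr5+Bcl6+ replicate 2 (adjusted p = 0.151) and when Cxcr5+Bcl6- replicate 1 (0.227) or 2 (0.08) was left out. That for Cd86 ended without either Cxcr5+Bcl6+ replicate (adjusted p = 0.146 for replicate 1 and 0.0885 for replicate 2 left out) and likewise without Cxcr5+Bcl6- replicate 1 (difference -0.27, adjusted p = 0.26). With the replicate number as a block, probe set 10435704 no longer passed (adjusted p = 0.057).

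Cd40 (probe set 10478678) encodes the receptor through which helper T cells license dendritic cells and B cells. It had 8.56 and 8.67 in Cxcr5+Bcl6+, 9.01 and 9.08 in Cxcr5+Bcl6- and 9.97 and 10.00 in Cxcr5-Bcl6- cells, with no overlap. Its difference between Cxcr5+Bcl6+ and Cxcr5+Bcl6- cells was -0.43 (log2, SE 0.0886, adjusted p = 0.00402), and without Cxcr5+Bcl6- replicate 2 it was -0.40 (adjusted p = 0.0526). Cd83 (probe set 10404840), a maturation marker of dendritic cells that activated lymphocytes also carry, had 11.73 and 11.80 in Cxcr5+Bcl6+, 11.69 and 11.64 in Cxcr5+Bcl6- and 11.77 and 11.70 in Cxcr5-Bcl6- cells. Its values in Cxcr5+Bcl6+ and Cxcr5-Bcl6- cells overlapped, and its difference between the Cxcr5+ groups was 0.10 (95% interval -0.093 to 0.294, adjusted p = 0.446). Cd83 was thus the member that did not share the pattern of the others.

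The partners of these molecules went several ways. Cd40lg, the ligand of CD40, had log2 differences in Cxcr5+Bcl6+ cells of -0.57 against Cxcr5+Bcl6- (adjusted p = 0.00135) and -0.77 against Cxcr5-Bcl6- cells (adjusted p = 8.24e-05). Cd274, which encodes PD-L1, a binding partner of CD80, and is also among the mature dendritic cell genes below, was lower by -1.53 and -1.94 in the same comparisons (adjusted p = 5.63e-07 and 4.81e-08). Traf6, an adaptor of CD40 signalling, was lower by -0.65 and -1.07 (adjusted p = 0.000236 and 2.65e-06), while Dpp4, a protease that trims CCL22, was higher by 0.92 in Cxcr5+Bcl6+ cells against Cxcr5-Bcl6- cells (adjusted p = 2.09e-05). Of 11 measured partners out of 13, Cxcr5+Bcl6+ cells had 3 higher and 5 lower against Cxcr5-Bcl6- cells, beside 17.6% and 17.7% of all probe sets. Those not given above were Cd28 (0.44) and Traf5 (0.47), both higher, and Ctla4 (-0.33), lower. Against Cxcr5+Bcl6- cells 1 was higher and 5 lower, beside 13.4% and 13% of all. The 1 rise, Dpp4 (0.31, adjusted p = 0.0394), did not pass after each array was centred on its median, nor with all rows tested, nor with the replicate block, nor without Cxcr5+Bcl6+ replicate 2 or either Cxcr5+Bcl6- replicate (highest adjusted p = 0.254).

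Apol7c (probe set 10430186) belongs to the apolipoprotein L family. It had 7.16 and 7.25 in Cxcr5+Bcl6+, 7.39 and 7.51 in Cxcr5+Bcl6- and 10.65 and 9.62 in Cxcr5-Bcl6- cells. The Cxcr5-Bcl6- arrays lay far above the rest but differed from each other by more than for any other member (SD 0.728, n = 2). Its log2 difference from Cxcr5-Bcl6- cells was -2.93 for Cxcr5+Bcl6+ cells and -2.69 for Cxcr5+Bcl6- cells, and its difference between the Cxcr5+ groups was -0.24 (95% interval -0.757 to 0.275, adjusted p = 0.497). Of 11 other Apol genes listed, 5 had a probe set of their own, and 0 of the 5 passed in any of the 3 comparisons by limma. At an unadjusted p under 0.05 there were 0, 2 and 0 for Cxcr5+Bcl6+ against Cxcr5-Bcl6-, Cxcr5+Bcl6- against Cxcr5-Bcl6- and Cxcr5+Bcl6+ against Cxcr5+Bcl6-. Without Cxcr5+Bcl6+ replicate 2, 2 passed as higher in each comparison of Cxcr5+Bcl6+ cells. Apol7a had levels of 5.73 to 5.94 over all arrays, and the probe sets naming both Apol7b and Apol7e were left out.

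Cd209a and Cd209d encode mouse relatives of the human lectin DC-SIGN. Cd209a (probe set 10576784) had 6.97 and 7.03 in Cxcr5+Bcl6+, 7.40 and 7.30 in Cxcr5+Bcl6- and 9.18 and 8.85 in Cxcr5-Bcl6- cells. Cd209d (probe set 10576807) had 6.43 and 6.45 in Cxcr5+Bcl6+, 7.20 and 7.13 in Cxcr5+Bcl6- and 9.87 and 9.63 in Cxcr5-Bcl6- cells. Neither gene's groups overlapped. Cd209d was 9.92-fold and Cd209a 4.06-fold lower in Cxcr5+Bcl6+ cells against Cxcr5-Bcl6- cells.

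Between Cxcr5+Bcl6+ and Cxcr5+Bcl6- cells Cd209d differed by -0.72 (log2, SE 0.0996, adjusted p = 0.000302) and Cd209a by -0.36 (SE 0.112, adjusted p = 0.0365). Both groups compared were at or under the 95th percentile of the sensory receptor genes for Cd209d, and the Cxcr5+Bcl6+ group for Cd209a. The call for Cd209a ended without each of the 4 arrays compared in turn (adjusted p = 0.162 and 0.0946 without Cxcr5+Bcl6+ replicates 1 and 2, and 0.201 and 0.072 without Cxcr5+Bcl6- replicates 1 and 2). The pair lies in a run of 9 neighbouring genes on chromosome 8, from Fcer2a through Clec4g to the Cd209 genes. The other Cd209 genes (Cd209b, Cd209c, Cd209e, Cd209f and Cd209g) and Clec4g were between 5.24 and 7.44 on all arrays. None passed in a comparison with Cxcr5-Bcl6- cells in the main fit. Some other fits gave a call, such as 1 passing as lower in Cxcr5+Bcl6+ cells after quantile normalisation. Cd209g was higher by 0.32 in Cxcr5+Bcl6+ cells against Cxcr5+Bcl6- cells (adjusted p = 0.0365), a call that ended after quantile normalisation, after centring, with all rows tested, with the replicate block, and without Cxcr5+Bcl6+ replicate 1 or either Cxcr5+Bcl6- replicate (highest adjusted p = 0.212). Fcer2a, the CD23 gene known from B cells at the other end of the run, had 9.25 and 9.29 in Cxcr5+Bcl6+, 9.43 and 9.36 in Cxcr5+Bcl6- and 6.69 and 6.99 in Cxcr5-Bcl6- cells, and was low in Cxcr5-Bcl6- cells alone.

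**Figure D3:**
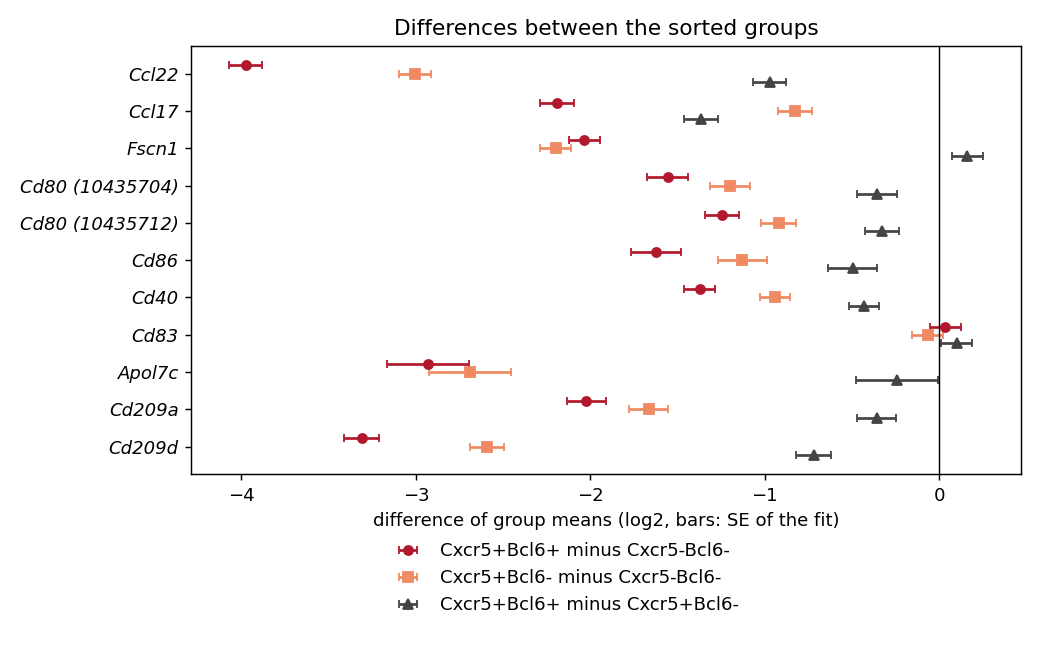
Difference of group means (horizontal axis, log2) for each member probe set, with circles for Cxcr5+Bcl6+ minus Cxcr5-Bcl6-, squares for Cxcr5+Bcl6- minus Cxcr5-Bcl6-, triangles for Cxcr5+Bcl6+ minus Cxcr5+Bcl6-, and bars for the SE of the fit. Apart from Cd83, which lies near 0 throughout, Ccl17 is the one gene whose triangle (-1.37) is further from 0 than its square (-0.83), and the squares and circles share the Cxcr5-Bcl6- arrays.

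Counted over probe sets, 10 of 11 members were lower and 0 higher in Cxcr5+Bcl6+ cells against Cxcr5-Bcl6- cells without overlap of the arrays, where 28.1% of all 23410 probe sets were lower and 34.4% higher. In Cxcr5+Bcl6- against Cxcr5-Bcl6- cells 11 of 11 were lower in that sense, where 30.8% of all were lower and 19.3% higher. Both counts follow from how the genes were chosen. In Cxcr5+Bcl6+ against Cxcr5+Bcl6- cells 9 were lower and 2 (Fscn1 and Cd83) higher without overlap, beside 26.4% and 39.4% of all. By the test 8 of 11 passed as lower and 0 as higher, while 13% of all probe sets passed as lower and 26.4% in either direction. These member tests are not independent of how the genes were chosen. The 8 became 4 with all rows tested and without either Cxcr5+Bcl6- replicate (Ccl22, Ccl17 and Cd209d each time, with Cd40 or Cd86), and 5 without either Cxcr5+Bcl6+ replicate. The median member difference there was -0.36 over 11 probe sets, beside 0.05 over all probe sets. The share called in either direction rests on 6185 calls, which were 3617 without Cxcr5+Bcl6- replicate 1 and 3820 without Cxcr5+Bcl6- replicate 2, and of which 50.8% were rises, against 35.0% after centring each array.

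The genes whose 6-array profile lay nearest to that of Ccl22, among 19938 genes and by the Euclidean distance of mean-centred log2 levels, were Cd209d (0.726), Mpeg1 (0.972), Pld4 (1.05), Ccr9 (1.11) and Siglech (1.13). Pld4, Ccr9 and Siglech are known from plasmacytoid dendritic cells, the type I interferon producers, and Mpeg1 from phagocytes. Their correlations with Ccl22 over 6 arrays were 0.977 to 0.998 and describe 3 groups of arrays more than 6 separate points. The other members lay further off, with Apol7c at rank 10, Fscn1 at 26, Cd209a at 30, Ccl17 at 50, Cd86 at 82, Cd80 at 91 and Cd40 at 170, and Cd83 at 9281. This distance also reflects the size of a difference. Apart from Cd83 (-0.076), the correlations of these other members with Ccl22 ran from 0.906 (Ccl17) to 0.994 (Cd40).

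The label of the list was set against markers of conventional dendritic cells. Of 14 measured, 7 were lower and 1 higher in Cxcr5+Bcl6+ cells against Cxcr5-Bcl6- cells, where 17.7% and 17.6% of all probe sets were (35.3% in either direction). In Cxcr5+Bcl6- against Cxcr5-Bcl6- cells 6 were lower and 0 higher, beside 5.93% and 5.22% of all (11.1% in either direction), which rest on 2610 calls (1317 and 1401 without Cxcr5+Bcl6- replicates 1 and 2). Sirpa, a signal-regulatory receptor of myeloid cells, had 7.83 and 7.73 in Cxcr5+Bcl6+, 7.83 and 7.90 in Cxcr5+Bcl6- and 9.23 and 9.37 in Cxcr5-Bcl6- cells. The growth factor receptor gene Flt3 had 7.33 and 7.06, 7.18 and 7.30, and 8.22 and 8.15 in the same order, and Itgax, which encodes CD11c, differed by -0.67 for Cxcr5+Bcl6+ cells and -0.82 for Cxcr5+Bcl6- cells against Cxcr5-Bcl6- cells (log2). These 3 genes were low in both Cxcr5+ groups, with adjusted p of 0.000195 or less against Cxcr5-Bcl6- cells. Flt3 and Itgax were at or under the 95th percentile of the sensory receptor genes on both arrays of each Cxcr5+ group. The 1 marker higher in Cxcr5+Bcl6+ against Cxcr5-Bcl6- cells was Naaa (0.43, adjusted p = 0.0125), a call that ended with all rows tested.

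Zbtb46, a transcription factor gene that sets conventional dendritic cells apart, had its highest mean in Cxcr5-Bcl6- cells but did not pass. It had 7.90 and 7.53 in Cxcr5+Bcl6+, 7.86 and 7.79 in Cxcr5+Bcl6- and 7.88 and 8.16 in Cxcr5-Bcl6- cells (adjusted p = 0.0951 and 0.483 against Cxcr5-Bcl6- cells). In Cxcr5+Bcl6+ cells it passed as lower after centring and without Cxcr5+Bcl6+ replicate 1 or Cxcr5-Bcl6- replicate 1 (lowest adjusted p = 0.0258). Xcr1, Clec9a, Clec10a, Mgl2, Clec4a4 and Cd207 stayed at or under the 95th percentile of the sensory receptor genes on both arrays of each group. Even so, Clec10a (-0.88 and -0.90) and Clec9a (-0.49 and -0.77) were lower by the test in Cxcr5+Bcl6+ and Cxcr5+Bcl6- cells against Cxcr5-Bcl6- cells (log2), the Clec9a call in Cxcr5+Bcl6+ cells ending without Cxcr5+Bcl6+ replicate 1 (adjusted p = 0.057). A level under this rough guide does not show that a marker is absent. The part of conventional dendritic cells in the members' levels was not tested. Between Cxcr5+Bcl6+ and Cxcr5+Bcl6- cells 1 of 14 passed, Ly75 (-0.41, adjusted p = 0.0184), beside 26.4% of all probe sets in either direction. This call ended with all rows tested and without Cxcr5+Bcl6+ replicate 1 or either Cxcr5+Bcl6- replicate.

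Other genes of mature dendritic cells, 21 measured of 24, fell in 13 cases and rose in 1 in Cxcr5+Bcl6+ against Cxcr5-Bcl6- cells, with a median of -0.37 (log2) beside 0.04 over all probe sets, of which 17.7% fell and 17.6% rose. The leading falls were Socs2 (-4.71), a brake on cytokine signalling, Serpinb9 (-2.19), an inhibitor of granzyme B, Cd274 (-1.94) and Pdcd1lg2 (-1.54), the PD-1 ligand genes (adjusted p = 6.54e-07 or less for each). Which cells the RNA of this list came from was not tested. Like every list used here, it was chosen with earlier results of these data known, so its counts are not independent of that choice. Against Cxcr5+Bcl6- cells 11 fell and 0 rose, beside 13% and 13.4% of all, led by Socs2 (-3.84), Cd274 (-1.53), Serpinb6b (-1.41) and Pdcd1lg2 (-1.31). In Cxcr5+Bcl6- against Cxcr5-Bcl6- cells 6 fell and 2 rose, beside 5.93% and 5.22% of all, but without an array the falls numbered 1 (Cxcr5+Bcl6- replicate 1), 2 (Cxcr5+Bcl6- replicate 2) and 3 (Cxcr5-Bcl6- replicate 2), and 1 with all rows tested. Its leading changes were Socs2 (-0.87, adjusted p = 0.000631), Marcksl1 (0.64, 0.00297) and Ebi3 (0.52, 0.00706, a call that ended with all rows tested and without Cxcr5+Bcl6- replicate 1).

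Ccr7, the receptor that brings mature dendritic cells and T cells to the T cell zone, had 12.28 and 12.23 in Cxcr5+Bcl6+, 12.55 and 12.57 in Cxcr5+Bcl6- and 12.93 and 12.96 in Cxcr5-Bcl6- cells. Its log2 difference was -0.69 for Cxcr5+Bcl6+ against Cxcr5-Bcl6- cells (adjusted p = 6.4e-05). The smaller steps, -0.38 for Cxcr5+Bcl6- against Cxcr5-Bcl6- cells (adjusted p = 0.0137) and -0.31 for Cxcr5+Bcl6+ against Cxcr5+Bcl6- cells (adjusted p = 0.021), each ended when either Cxcr5+Bcl6- replicate was left out, the first also with all rows tested and without Cxcr5-Bcl6- replicate 2 and the second without Cxcr5+Bcl6+ replicate 2 (highest adjusted p = 0.146 and 0.166).

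**Figure D4:**
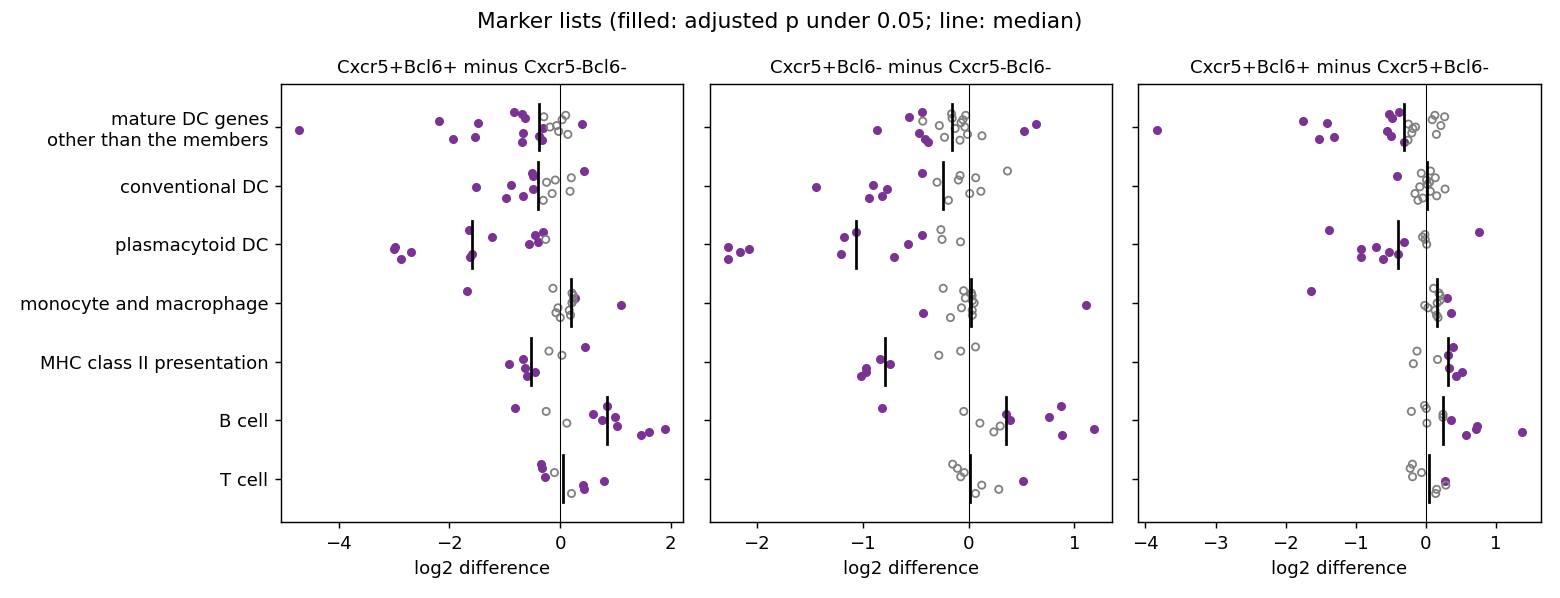
Log2 difference (horizontal axis) of each measured gene of 7 marker lists in the 3 comparisons, one panel each, with filled points for an adjusted p under 0.05, open points for the rest and vertical lines for list medians. The horizontal scales differ. All plasmacytoid genes lie left of 0 in both comparisons with Cxcr5-Bcl6- cells, and the MHC class II median lies left of 0 there and right of 0 in Cxcr5+Bcl6+ minus Cxcr5+Bcl6-.

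Markers of other cells moved beside the members. Plasmacytoid dendritic cell genes were lower in 12 of 13 measured cases in Cxcr5+Bcl6+ cells against Cxcr5-Bcl6- cells, led by Pld4 (-2.98), Ccr9 (-3.00), Siglech (-2.88) and Ly6d (-2.69), and in 10 of 13 in Cxcr5+Bcl6- cells, where 17.7% and 5.93% of all probe sets were lower. In Cxcr5+Bcl6+ against Cxcr5+Bcl6- cells 8 of 13 were lower and 1 (Spib) higher, beside 13% and 13.4% of all. Their median difference there was -0.39, as it was for the 10 members with 1 probe set per gene (log2). The medians differed in the comparisons with Cxcr5-Bcl6- cells. They were -1.60 for plasmacytoid genes and -2.03 for members in Cxcr5+Bcl6+ cells, and -1.06 and -1.43 in Cxcr5+Bcl6- cells. Of the 13, 6 (Siglech, Ccr9, Pld4, Smim5, Lair1 and Cd300c) were at or under the 95th percentile of the sensory receptor genes in Cxcr5+Bcl6+ cells, and 1 (Smim5) in each other group. The summed level of the 13 genes, on a linear scale, was 4098 and 4077 in Cxcr5+Bcl6+, 5666 and 5751 in Cxcr5+Bcl6- and 11824 and 11614 in Cxcr5-Bcl6- arrays. The 10 members summed to 5419 and 5747, 6325 and 6027, and 14580 and 13342 in the same order. Cd83, the brightest member on every array (log2 11.64 to 11.80), weighs most in the member sum. That sum is thus held up by the gene that did not share the pattern of the others. The part of plasmacytoid dendritic cells in the members' levels was not tested. In bulk RNA, fewer cells of a type and less RNA per cell cannot be told apart.

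MHC class II presentation genes, used by all professional antigen-presenting cells, differed in which group was lowest. The lowest mean was in Cxcr5+Bcl6- cells for H2-Aa, H2-Ab1, H2-Eb1, Cd74 and Ciita, in Cxcr5+Bcl6+ cells for H2-DMa and H2-Oa, and in Cxcr5-Bcl6- cells for H2-Ob. H2-Aa had 10.49 and 10.49 in Cxcr5+Bcl6+, 10.00 and 10.12 in Cxcr5+Bcl6- and 11.09 and 11.07 in Cxcr5-Bcl6- cells. Of 8 measured, 5 were lower and 1 higher in Cxcr5+Bcl6+ against Cxcr5-Bcl6- cells, beside 17.7% and 17.6% of all probe sets. In Cxcr5+Bcl6- against Cxcr5-Bcl6- cells 5 were lower and 0 higher, beside 5.93% and 5.22% of all. Between Cxcr5+Bcl6+ and Cxcr5+Bcl6- cells 5 rose and 0 fell, beside 13.4% of all probe sets that rose, and the rises numbered 2 without either Cxcr5+Bcl6- replicate, 3 without Cxcr5+Bcl6+ replicate 2 and 3 after centring. The summed level was 8316 and 8327 in Cxcr5+Bcl6+, 6981 and 6945 in Cxcr5+Bcl6- and 12076 and 12250 in Cxcr5-Bcl6- arrays.

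B cell genes, which share MHC class II and CD40 with dendritic cells, were higher in 8 of 11 cases and lower in 1 in Cxcr5+Bcl6+ cells against Cxcr5-Bcl6- cells (17.6% and 17.7% of all), Ms4a1 (1.89), Cd79b (1.61) and Cd79a (1.46) among them. Their summed level was 3522 and 3672 in Cxcr5+Bcl6+, 2449 and 2293 in Cxcr5+Bcl6- and 1904 and 2038 in Cxcr5-Bcl6- arrays. Of 13 monocyte and macrophage genes 2 were higher and 1 lower in Cxcr5+Bcl6+ cells against Cxcr5-Bcl6- cells, beside 17.6% and 17.7% of all. They were Lyz2 and C1qc (0.27) against Ccr2 (-1.69). The C1qc call ended in 11 of 14 alternatives, quantile normalisation, centring and the replicate block among them (highest adjusted p = 0.22), and 7 genes were higher without Cxcr5-Bcl6- replicate 2. The 13 genes summed to 3062 and 3184 in Cxcr5+Bcl6+, 2959 and 2945 in Cxcr5+Bcl6- and 2930 and 3214 in Cxcr5-Bcl6- arrays, with Adgre1, Csf1r, Fcgr1, Mertk, C1qc and Marco at or under the 95th percentile of the sensory receptor genes throughout. T cell genes summed to 50134 and 51275, 49340 and 48937, and 47701 and 47212 in the same order. Of 8 measured T cell genes, 3 were higher and 3 lower in Cxcr5+Bcl6+ against Cxcr5-Bcl6- cells, beside 17.6% and 17.7% of all. The lower ones were Cd6 (-0.34), Cd2 (-0.33) and Cd5 (-0.26). In Cxcr5+Bcl6- against Cxcr5-Bcl6- cells 1 was higher and 0 lower, beside 5.22% and 5.93% of all. Cd4 was higher by 0.79 in Cxcr5+Bcl6+ cells and by 0.51 in Cxcr5+Bcl6- against Cxcr5-Bcl6- cells (log2, adjusted p = 2.76e-05 and 0.00297).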

How the data were processed

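The authors deposited one log2 level per probe set, normalised across arrays. Per the submitters' processing notes the tools were GCOS 1.1, RMA and Affymetrix Expression Console, with no order or settings; the values' range showed the log2 scale. Background correction could not be varied, and no genome build is named in the sources used here. Symbols came from the platform annotation: 21789 probe sets had 1 symbol, 1621 several and 12146 none, and 21698 were updated through Entrez identifiers of RefSeq (GRCm38.p6).

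The 23410 named probe sets were fitted with limma 3.58.1 in R 4.3.3 (lmFit on group means over 6 arrays, eBayes), two-sided, with Benjamini-Hochberg adjustment over all of them and a threshold of 0.05. The fit had 3 residual and 8.25 prior degrees of freedom and was tested on simulated data. Lists used the probe set with the highest mean per gene. The members and lists were chosen with earlier results of these data known. Named list genes were the 4 with the smallest p per list and comparison, plus defining markers, and the 5 genes nearest to Ccl22, any others being chosen after their values were seen. The 3 comparisons share arrays. The main fit did not pair arrays by the replicate numbers in their titles. Whether same-numbered arrays shared animals was not established. Alternatives were quantile normalisation, median centring, a filter on dim probe sets, all rows, 1 probe set per gene, trended or robust eBayes, the 4 arrays compared, a replicate block and leaving out each array.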

Additional observations from a re-analysis of the deposited data

How the results depend on the processing

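With 2 arrays per group, the number of arrays limits the precision. Between Cxcr5+Bcl6+ and Cxcr5+Bcl6- cells the differences of Ccl22 (-1.06 to -0.89, adjusted p at most 0.0013), Ccl17 (-1.47 to -1.26, 0.000404) and Cd209d (-0.83 to -0.68, 0.00645) passed under every alternative in which they were tested. The filter on dim probe sets left out Cd209a and Cd209d, and taking 1 probe set per gene left out Cd80 probe set 10435712. Calls for Cd80, Cd86 and Cd209a ended when all rows were tested (adjusted p = 0.121 and 0.0801 for Cd80, 0.0997 for Cd86 and 0.107 for Cd209a). In all, 19 of 162 member values in this comparison lost their call and none changed direction. The 162 include 15 values each for Fscn1, Cd83 and Apol7c, which had no call to lose. The share that lost a call is therefore larger among the members called. Against Cxcr5-Bcl6- cells, no member called in the fit changed direction. Values moved by more than the replicate spread in 4 cases for Cxcr5+Bcl6+ and 1 for Cxcr5+Bcl6- cells, each after quantile normalisation or centring. The other alternatives could not move a value that far. They keep the difference or, with an array left out, shift it by no more than that spread.

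Counts of called probe sets were 8255, 2610 and 6185 for Cxcr5+Bcl6+ against Cxcr5-Bcl6-, Cxcr5+Bcl6- against Cxcr5-Bcl6-, and Cxcr5+Bcl6+ against Cxcr5+Bcl6-. They were 6780 to 8370, 1317 to 2624 and 3617 to 6987 with an array left out, and the second was 1579 when all rows were tested. Same-numbered arrays deviated together with correlations of -0.05, -0.23 and 0.26 between groups. With the replicate block the counts were 7942, 2411 and 5862, and among members the block ended only the call of Cd80 probe set 10435704. The cause of these shifts was not tested.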
